A study of Mus musculus with 12 samples.

Results

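The renal stroma and interstitium were followed here through 10 genes, of 12393 genes that the arrays measured through probe sets with a single gene symbol. These 10 were chosen with earlier results of these data known. The genes were taken as a fixed list of names: the transcription factor genes Foxd1, Meis1, Meis2, Tcf21 and Snai2, the receptor genes Pdgfra and Pdgfrb, the peptide gene Penk, and the matrix genes Smoc2 and Tnc. They were found on 13 of the 20380 probe sets with 1 symbol, so that all 10 were measured, and all 10 read on average above the highest signal of the bacterial control probe sets.

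The stroma of the developing kidney surrounds the nephron progenitors and the branching ureteric bud. Its progenitors in the cortex express Foxd1, send signals that let nephron progenitors differentiate, and give rise to cortical and medullary interstitial cells, mesangial cells and pericytes. As stromal cells move from cortex to medulla they lose Foxd1 and take up other genes, among them Penk in the medullary interstitium of the mouse, and beta-catenin in stromal cells is known to take part in that patterning.

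The study compared 6 samples labelled beta-catenin activated with 6 labelled wild type, called activated and wildtype below. All were cultured fetal kidneys of C57BL/6 mice from mothers injected intraperitoneally with tamoxifen at 10.5 days post coitum, with 2 mg given for every 40 g that the mouse weighed. Dissection is dated to 10.5 days as well, and culture on membranes in a medium with transferrin, insulin and selenium lasted 3 to 4 days. The labels describe the activated kidneys as carrying tumours, and they give neither the allele nor the cells in which it was switched on. By the numbers in their titles the samples form a lower and a higher run, with 3 activated arrays (1 to 3 in the lower run, 4 to 6 in the higher) and 3 wildtype arrays (numbered likewise) in each. What the runs stand for is not said, and neither is whether the samples came from separate animals, so the p-values measure only the spread between these samples.

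Levels are log2(intensity + 16) after quantile normalisation, and differences are on that scale, where the changes of dim genes are understated. A gene was called at an adjusted p under 0.05 in limma's moderated test over all 12393 genes. The highest bacterial control signal was 5.45 on the same scale. Apcdd1, a Wnt inhibitor gene known to be a target of the pathway, averaged 12.77 in activated and 9.86 in wildtype kidneys of the lower run, and 11.52 in activated and 10.44 in wildtype kidneys of the higher run (n = 3 arrays each). Ctnnb1, the gene of beta-catenin, averaged 12.92 ± 0.06 in activated and 12.97 ± 0.10 in wildtype kidneys (SD, n = 6 arrays each), which checks nothing about an activating change in the protein. On a log2 ratio that compares 5′ with 3′ control probe sets (Gapdh, beta-actin) and moves with the quality of RNA and labelling, activated 2 stood apart, at -0.26 where the other arrays lay between -2.43 and -1.06. Activated 4 had signal both of Xist, made from an inactivated X chromosome, at 10.90, and of Y-linked genes, at a mean of 7.54.

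In the lower run 3 of the 10 stromal genes fell in activated kidneys, Foxd1, Meis2 and Pdgfra, and 1 rose, Snai2. Those 4 calls stand beside 188 calls, or 1.52%, over all genes; 0.621% of all genes fell and 0.896% rose. At an unadjusted p under 0.05 stood the same number of members, 4 of 10, and 10.2% of all genes. Because the members were chosen with earlier results of these data known, these counts are no independent evidence. Foxd1 was 1.91-fold lower in activated than in wildtype kidneys, Meis2 1.78-fold and Pdgfra 1.48-fold lower, and Snai2 1.71-fold higher. The median difference was -0.12 over the 10 genes and -0.03 over all genes. In these whole kidneys, fewer stromal cells and less of a transcript per stromal cell cannot be told apart.

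Foxd1 encodes the forkhead factor that defines cortical stromal progenitors. In the lower run it read 9.62, 9.41 and 9.48 in activated 1 to 3, against 10.43, 10.49 and 10.40 in wildtype 1 to 3. Its higher-run levels were 9.53, 9.61 and 9.55 in activated 4 to 6, against 9.89, 9.81 and 9.66 in wildtype 4 to 6. Every activated array lay below every wildtype array of its run and of the other run; this held, in that direction or the opposite one, for 0.500% of all genes. The 3 wildtype arrays of the lower run were the high ones, and the other 9 arrays lay within 9.41 to 9.89. The difference was -0.93 in the lower run (SE 0.10, adjusted p = 0.000168 by limma) and -0.22 in the higher run (SE 0.10, 95% interval -0.44 to 0.00, adjusted p = 1.00 by limma).

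Meis2 encodes a homeodomain factor of the TALE class, present in renal stroma, that binds DNA together with Pbx proteins. Its levels in the lower run were 9.75, 9.88 and 9.79 in activated 1 to 3, against 10.49, 10.81 and 10.62 in wildtype 1 to 3. The higher-run levels were 9.87, 10.10 and 10.18 in activated 4 to 6, against 10.30, 10.10 and 10.26 in wildtype 4 to 6. The groups were thus apart in the lower run and overlapped in the higher run. The difference was -0.83 (SE 0.12, adjusted p = 0.00116 by limma) in the lower run and -0.17 (SE 0.12, 95% interval -0.42 to 0.08) in the higher run. The lower-run falls of Foxd1 and Meis2 were called under all 21 alternative settings, with differences of -0.99 to -0.89 and of -0.90 to -0.75.

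Pdgfra encodes the alpha receptor for platelet-derived growth factors, a marker of interstitial fibroblasts. It read 10.72, 10.33 and 10.76 in activated 1 to 3, against 11.11, 11.22 and 11.17 in wildtype 1 to 3. The activated arrays were all the lower ones, activated 2 the lowest. In the higher run the levels were 11.11, 10.85 and 10.82 in activated 4 to 6, against 11.11, 10.89 and 11.06 in wildtype 4 to 6, and the groups overlapped. The difference was -0.56 in the lower run (SE 0.12, adjusted p = 0.0304 by limma) and -0.09 in the higher run (SE 0.12, 95% interval -0.35 to 0.17). This call was lost without wildtype 1, 2 or 3 or activated 1 or 2, with differences of -0.59, -0.53, -0.56, -0.62 and -0.43 and adjusted p between 0.0575 and 0.124 by limma; over all 21 alternatives the adjusted p ran from 0.0146 to 0.956. The dimmer probe set of Pdgfra, with a mean of 5.70 near the control signal, gave 0.43 (SE 0.36) in the lower run, and the mean of both probe sets gave -0.07.

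Snai2, the gene of the zinc finger repressor Slug, known for its part in the passage of epithelial to mesenchymal cells, moved the other way. It read 9.57, 9.53 and 9.94 in activated 1 to 3, against 9.13, 8.74 and 8.85 in wildtype 1 to 3. Higher-run arrays read 9.84, 9.69 and 10.15 in activated 4 to 6, against 9.99, 10.18 and 9.87 in wildtype 4 to 6. The lower-run wildtype arrays were below all 9 others, and the higher-run groups overlapped. The difference was 0.77 in the lower run (SE 0.16, adjusted p = 0.0220 by limma) and -0.12 in the higher run (SE 0.16, 95% interval -0.46 to 0.22). The lower-run call was lost without wildtype 2 or 3 or activated 1 or 3, with differences of 0.69, 0.74, 0.82 and 0.64 and adjusted p between 0.0543 and 0.108 by limma, and the adjusted p ran from 0.0150 to 0.115 over all 21 alternatives.

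**Figure D1:**
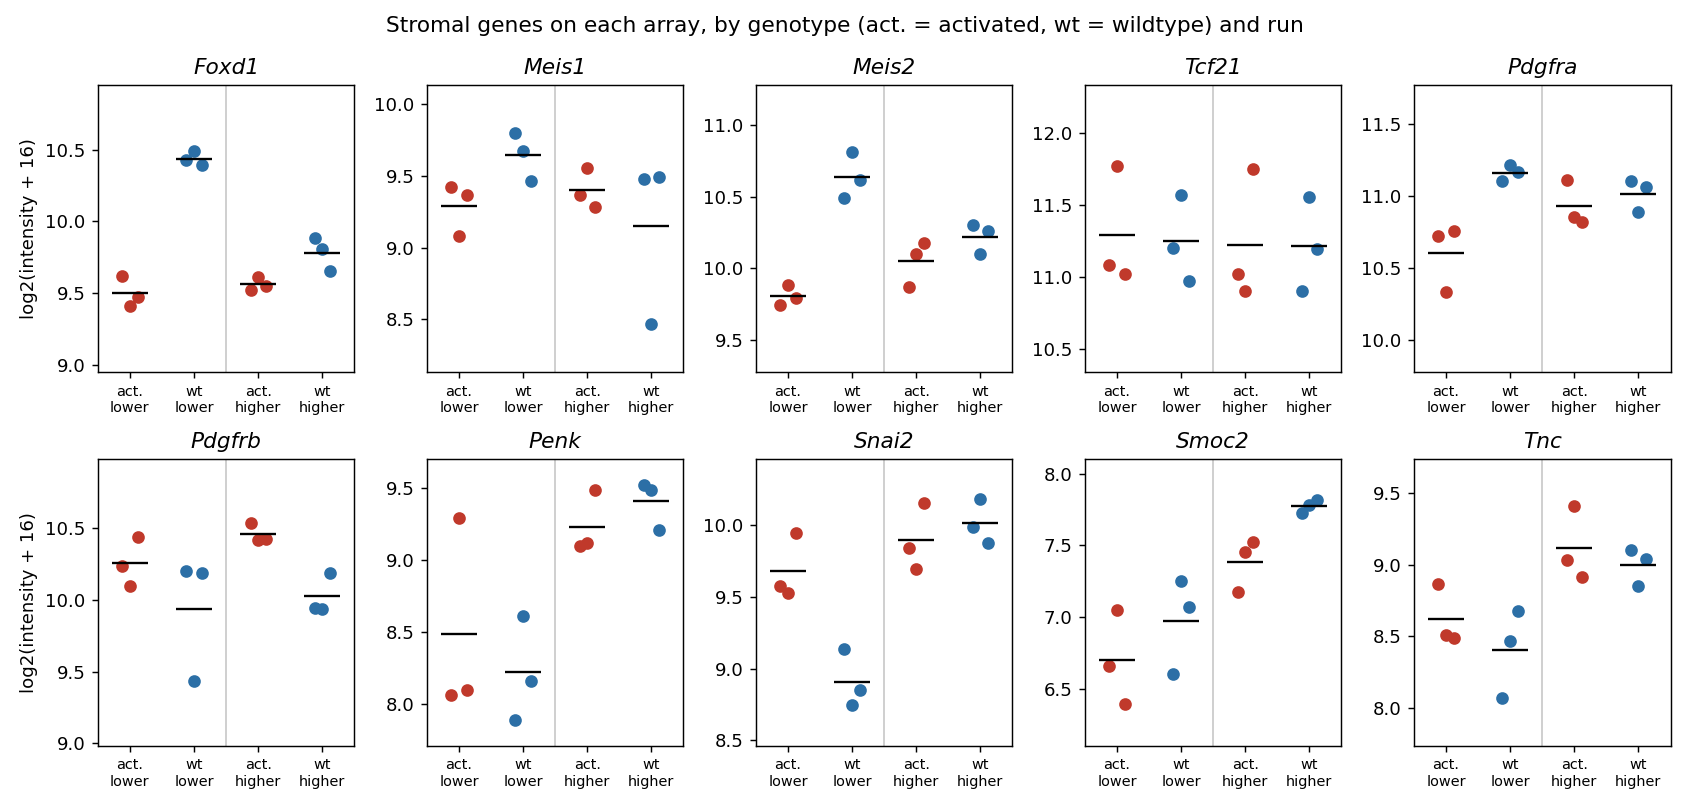
Level of each of the 10 stromal genes, as log2(intensity + 16) after quantile normalisation, on every array; points are arrays, black bars are means of 3 arrays, and each panel spans the same range of log2 values. Foxd1 and Meis2 were highest, and Snai2 lowest, in the 3 wildtype arrays of the lower run, while Penk, Smoc2 and Tnc had higher means in the higher run in both genotypes, with activated 2 the exception among the Penk arrays.

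The sequences upstream of the 3 genes that fell in the lower run are given so that they can be set side by side. Each is the stretch of 250 bases before the RefSeq start on assembly GRCm38.p6, read 5′ to 3′ on the gene's strand; capitals mark TGACAG, the core that Meis proteins bind, searched on both strands. Foxd1 lies at chr13:98353995-98354244 on the plus strand, Meis2 at chr2:116064620-116064869 on the minus strand and Pdgfra at chr5:75152001-75152250 on the plus strand.
Foxd1: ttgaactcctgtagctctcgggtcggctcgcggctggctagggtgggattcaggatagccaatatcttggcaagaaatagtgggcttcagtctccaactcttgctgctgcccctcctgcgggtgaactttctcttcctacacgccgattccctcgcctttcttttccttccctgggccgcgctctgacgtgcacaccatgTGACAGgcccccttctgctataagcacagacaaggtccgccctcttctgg
Meis2: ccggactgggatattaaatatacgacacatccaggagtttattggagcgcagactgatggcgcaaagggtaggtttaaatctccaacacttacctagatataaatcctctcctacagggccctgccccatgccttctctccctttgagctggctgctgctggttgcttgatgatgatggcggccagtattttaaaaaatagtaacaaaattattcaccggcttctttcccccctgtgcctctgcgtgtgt
Pdgfra: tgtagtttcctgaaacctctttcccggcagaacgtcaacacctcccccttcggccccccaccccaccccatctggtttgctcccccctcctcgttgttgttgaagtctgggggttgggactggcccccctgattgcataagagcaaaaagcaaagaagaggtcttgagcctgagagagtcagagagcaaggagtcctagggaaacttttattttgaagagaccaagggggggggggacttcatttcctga
TGACAG occurs in the Foxd1 stretch alone of these 3, on the gene's own strand with its first base 50 bases before the start; 15.86% of 32851 RefSeq promoters hold it in the same window. The letters CTTTGAA or CTTTGAT, forms of the core that Tcf and Lef proteins bind, occur in none of the 3 on either strand, and in 7.48% of all promoters. Both motifs were chosen with the expression results known, and a match or its absence in this window describes the letters only.

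The other 6 genes did not pass the test in the lower run. Meis1, the near relative of Meis2, read 9.42, 9.08 and 9.37 in activated 1 to 3, against 9.80, 9.67 and 9.46 in wildtype 1 to 3, a difference of -0.35 (SE 0.22, adjusted p = 0.690 by limma). The Meis1 groups did not overlap, which made it 1 of 5 such members in the lower run, where 12.5% of all genes had groups apart. In the higher run it read 9.37, 9.56 and 9.28 in activated 4 to 6, against 9.48, 8.47 and 9.49 in wildtype 4 to 6, where wildtype 5 was far below the rest. The higher-run difference of 0.26 became -0.08 without wildtype 5.

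Pdgfrb encodes the beta receptor for platelet-derived growth factors, which marks pericytes and mesangial cells. It read 10.23, 10.10 and 10.44 in activated 1 to 3, against 10.20, 9.43 and 10.19 in wildtype 1 to 3. The higher-run levels were 10.53, 10.41 and 10.42 in activated 4 to 6, against 9.94, 9.94 and 10.19 in wildtype 4 to 6. The higher-run groups were apart, as for 3 of the 10 members and 11.3% of all genes, and the lower-run groups overlapped. The differences were 0.32 (SE 0.17, adjusted p = 0.608 by limma) in the lower run and 0.43 (SE 0.17, 95% interval 0.06 to 0.81, adjusted p = 1.00 by limma) in the higher run. Without wildtype 2, the lowest array, the lower-run difference was 0.06.

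Smoc2 encodes a secreted calcium-binding matrix protein. Its levels were 6.66, 7.05 and 6.40 in activated 1 to 3, against 6.61, 7.25 and 7.07 in wildtype 1 to 3, and 7.18, 7.46 and 7.52 in activated 4 to 6, against 7.72, 7.78 and 7.81 in wildtype 4 to 6. The differences were -0.27 (SE 0.22) and -0.39 (SE 0.22) in the lower and the higher run, and the groups were apart in the higher run alone, without passing the test. Without single arrays the lower-run difference of Smoc2 ranged from -0.46 (without wildtype 1) to -0.12 (without activated 3). Its dimmer probe set, with a mean of 5.48 near the control signal, gave -0.67 (SE 0.41) and -0.63 (SE 0.41).

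Tnc, the gene of the matrix glycoprotein tenascin C, gave 0.22 (SE 0.18) in the lower and 0.12 (SE 0.18) in the higher run. Its arrays overlapped in both runs, and leaving out single arrays moved the Tnc difference to between 0.05 (without wildtype 1) and 0.35 (without wildtype 3) in the lower run. In the higher run it lay between -0.02 (without activated 5) and 0.23 (without activated 6). Tcf21, a basic helix-loop-helix factor needed in stroma and podocytes and also present in condensing mesenchyme, gave 0.04 (SE 0.25, 95% interval -0.49 to 0.57) in the lower run and 0.01 (SE 0.25, 95% interval -0.52 to 0.54) in the higher run. Penk, which encodes the precursor of the enkephalin peptides, gave 0.26 (SE 0.28) in the lower run, where it read 8.06, 9.29 and 8.10 in activated 1 to 3, against 7.89, 8.61 and 8.16 in wildtype 1 to 3. Activated 2 was the highest of those 6 arrays, and without it the Penk difference was -0.14.

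In the higher run 0 of the 10 genes were called by limma, with 1, Pdgfrb, at an unadjusted p under 0.05; over all genes 0.0161% were called and 4.16% had an unadjusted p under 0.05. The 2 genes called there were Apcdd1 and the matrix gene Dcn, both higher in activated kidneys.

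**Figure D2:**
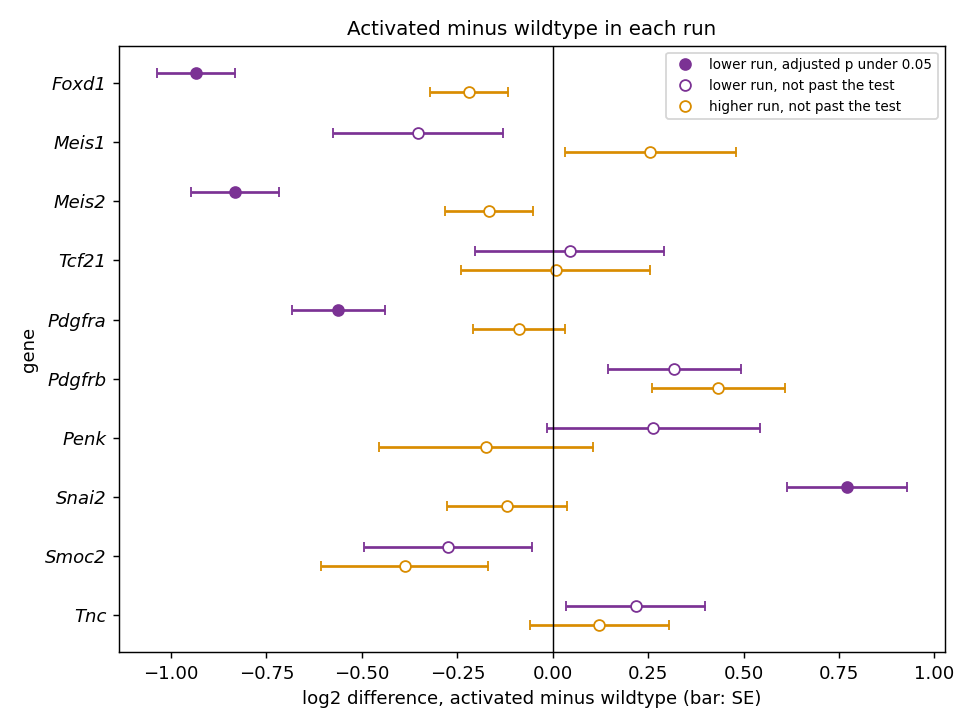
Difference between activated and wildtype kidneys for each stromal gene, in log2 units on the horizontal axis with bars of 1 SE, for the lower run (purple) and the higher run (orange); filled points passed the test. Foxd1, Meis2, Pdgfra and Snai2 passed in the lower run, and no gene did in the higher run.

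Over all 12 arrays 0 of the 10 genes were called by limma, with 4 at an unadjusted p under 0.05, where 0.0242% of all genes were called and 6.15% had such a p. Those 4 were Foxd1 (-0.58, SE 0.14, adjusted p = 0.327), Meis2 (-0.50, SE 0.12, adjusted p = 0.327), Pdgfrb (0.38, SE 0.13, adjusted p = 0.599) and Pdgfra (-0.32, SE 0.11, adjusted p = 0.591), all by limma. Smoc2 (-0.33, SE 0.24, adjusted p = 0.910 by limma) was not among them. With the run as a term limma again called 0 of 10, with 5 at an unadjusted p under 0.05, beside 0.105% of all genes called and 8.79% with such a p, and Foxd1 had an adjusted p of 0.0802 by limma. The effect averaged over the runs, in the model with separate means for both genotypes in both runs, called 2 of the 10 as lower, Foxd1 (adjusted p = 0.000996) and Meis2 (adjusted p = 0.00688), beside 0.839% of all genes called and 0.307% called as lower.

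The test of the difference of the activation effect between the runs called 0 of the 10 genes, with 4 at an unadjusted p under 0.05; 0.331% of all genes were called and 6.11% had such a p. Higher minus lower run, that difference was 0.72 for Foxd1 (SE 0.15, adjusted p = 0.0602), 0.66 for Meis2 (SE 0.16, adjusted p = 0.138), 0.47 for Pdgfra (SE 0.17, adjusted p = 0.535) and -0.89 for Snai2 (SE 0.22, adjusted p = 0.146), all by limma. So the lower-run calls are not shown to be particular to that run. With the 5′ to 3′ control ratio as a covariate the difference passed for Foxd1 (0.71, adjusted p = 0.0195) and Meis2 (0.68, adjusted p = 0.0455), and over all 20 alternatives the adjusted p by limma ran from 0.0195 to 0.318 for Foxd1 and from 0.0455 to 0.359 for Meis2.

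The runs differed from each other within each genotype as well. In wildtype kidneys of the higher run, set against wildtype kidneys of the lower run, Foxd1 was 1.57-fold lower, Penk 2.28-fold higher and Snai2 2.15-fold higher, so that limma called 3 of the 10 genes, 2 as higher and 1 as lower, beside 5.16% of all genes, 3.53% as higher and 1.64% as lower. The groups of 6 of the 10 did not overlap, as for 25.3% of all genes. The wildtype arrays 1 to 3 enter both this comparison and the lower-run comparison of genotypes, so the values of both belong side by side. Foxd1 differed by -0.65 between the wildtype runs (SE 0.10, adjusted p = 0.00161 by limma) and by -0.93 between genotypes in the lower run; Snai2 differed by 1.10 (SE 0.16, adjusted p = 0.000866 by limma) and by 0.77. Meis2 differed by -0.42 between the wildtype runs (SE 0.12, adjusted p = 0.0504 by limma) and by -0.83 between genotypes in the lower run.

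Penk, a gene of the medullary interstitium, read 9.53, 9.49 and 9.21 in wildtype 4 to 6 of the higher run, against 7.89, 8.61 and 8.16 in wildtype 1 to 3 of the lower run. All the higher-run arrays lay above the lower-run ones, and the difference was 1.19 (SE 0.28, adjusted p = 0.0229 by limma). It was lost without wildtype 1, 3, 4 or 5, at 1.02, 1.16, 1.13 and 1.15, with adjusted p between 0.0731 and 0.0952 by limma; over all 20 alternatives the adjusted p ran from 6.61e-05 to 0.0952. In activated kidneys Penk read 9.10, 9.12 and 9.49 in activated 4 to 6, against 8.06, 9.29 and 8.10 in activated 1 to 3, a difference of 0.75 (SE 0.28, adjusted p = 0.176 by limma). Without activated 2, the high array of the lower run, that difference was 1.16 and passed (adjusted p = 0.00408 by limma; 0.000827 to 0.452 over 20 alternatives).

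Smoc2 and Tnc were higher in the higher run without passing the test. In wildtype kidneys Smoc2 differed by 0.80 (SE 0.22, adjusted p = 0.0515 by limma) and Tnc by 0.59 (SE 0.18, adjusted p = 0.0816 by limma). In activated kidneys the differences were 0.68 (SE 0.22, adjusted p = 0.104 by limma) for Smoc2 and 0.50 (SE 0.18, adjusted p = 0.167 by limma) for Tnc. Tnc read 9.03, 9.41 and 8.91 in activated 4 to 6 of the higher run, against 8.87, 8.51 and 8.49 in activated 1 to 3 of the lower run, and 9.10, 8.85 and 9.04 in wildtype 4 to 6, against 8.07, 8.46 and 8.68 in wildtype 1 to 3. In both genotypes the Tnc arrays of the runs did not overlap. Without activated 2 the Smoc2 difference passed in both genotypes, at 0.80 in wildtype (adjusted p = 0.0246 by limma; 0.00850 to 0.173 over 20 alternatives) and 0.86 in activated kidneys (adjusted p = 0.0384 by limma; 0.0162 to 0.277 over 20 alternatives).

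In activated kidneys 0 of the 10 genes were called between the runs by limma, with 4 at an unadjusted p under 0.05, where 4.91% of all genes were called and 16.7% had such a p. The runs did not overlap for 3 of the 10, Pdgfra, Smoc2 and Tnc, and for 20.1% of all genes. Foxd1 differed by 0.06 there (SE 0.10) and Snai2 by 0.21 (SE 0.16).

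**Figure D3:**
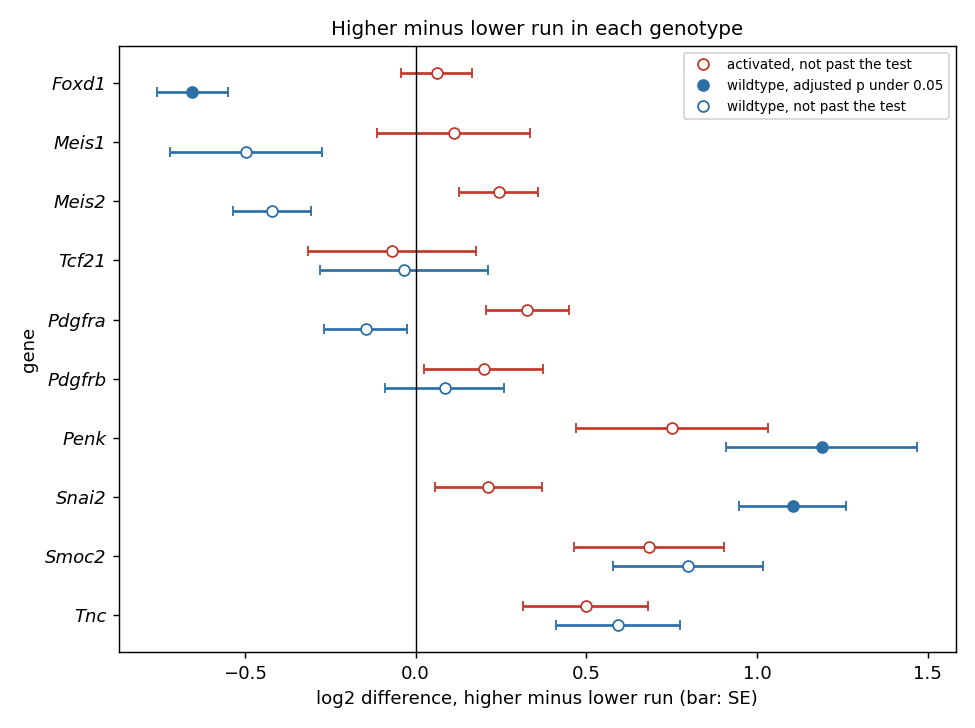
Difference between the higher and the lower run for each stromal gene, in log2 units on the horizontal axis with bars of 1 SE, in activated (red) and wildtype (blue) kidneys; filled points passed the test. Foxd1 fell and Penk and Snai2 rose in wildtype kidneys of the higher run, and no gene passed in activated kidneys.

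The variance over the 12 arrays was divided between genotype, run and their interaction as a description of these arrays. Genotype took 58.6% of the variance of Foxd1, 60.6% of that of Meis2, 44.9% of that of Pdgfra and 42.9% of that of Pdgfrb. Run took 65.9% for Smoc2, 64.5% for Penk, 62.1% for Tnc and 50.9% for Snai2. The interaction took 22.5% for Foxd1, 26.7% for Meis2, 23.8% for Pdgfra, 23.3% for Snai2 and 22.2% for Meis1, and at most 3.3% for the other 5. The wildtype arrays of the lower run were the ones apart for Foxd1 and Snai2. For Tcf21 99.1% lay within the 4 groups of 3 arrays.

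Tcf21 was highest on the arrays with the highest 5′ to 3′ control ratio. It read 11.78 in activated 2, 11.75 in activated 6, 11.57 in wildtype 2 and 11.55 in wildtype 5, the 4 arrays with the highest ratios, at -0.26, -1.06, -1.43 and -1.87, and lay between 10.90 and 11.20 in the other 8. In a model with the 4 group means and the ratio, chosen after the values were seen, Tcf21 rose by 0.51 for each unit of the ratio (SE 0.07, adjusted p = 0.00105 by limma) and Penk by 0.55 (SE 0.09, adjusted p = 0.00217 by limma). The slope passed for 2 of the 10 genes and for 10.4% of all genes. Foxd1 had a slope of -0.04 (SE 0.06) and Snai2 one of -0.02 (SE 0.09). Wildtype 2, wildtype 5 and activated 6 also had Y-linked means under the control signal, at 4.30, 4.48 and 4.24, so sex and the ratio move together in part; their separate parts were not tested.

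Other genes of the cortical stroma and its signals, of which 17 of 20 listed were measured, included 4 that fell and 0 that rose in the lower run. Those were Aldh1a2 (-1.09, SE 0.12), which makes retinoic acid, Ntn1 (-2.02, SE 0.26), the gene of netrin 1, the nuclear receptor gene Nr2f1 (-0.56, SE 0.12) and Gdnf (-1.28, SE 0.28), the ligand of Ret, which nephron progenitors make as well. The list's median difference was -0.28, beside -0.03 over all genes, of which 0.621% fell and 0.896% rose. Vcam1 (0.51), Rara (0.42), Hoxd10 (0.34), Cxcl12 (0.21) and Hoxd11 (0.20) lay above 0 without passing, and Rara read on average under the control signal. The list as a whole thus did not move in a single direction. Limma called 0 of the 17 in the higher run, with 1, Cxcl12 (0.49), at an unadjusted p under 0.05 and a median of -0.10. Over all genes 0.0161% were called there and 4.16% had such a p. Aldh1a2, Ntn1 and Nr2f1 were also lower in wildtype kidneys of the higher run than of the lower run, by differences of -0.61, -1.06 and -0.67, all past the test. This list, like the others, was chosen with earlier results of these data known, and so its direction is no independent evidence.

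Genes of medullary and ureteric stroma, with 12 of 14 listed measured, included 2 that rose and 0 that fell in the lower run. They were Bmp4 (2.06, SE 0.29), a ligand made by the mesenchyme along the ureteric stalk, and Wnt4 (1.08, SE 0.21), which medullary stroma and differentiating nephron progenitors both make. The median was 0.23, beside -0.03 over all genes, of which 0.896% rose and 0.621% fell. Wnt5a (0.75, SE 0.21, adjusted p = 0.125 by limma) and Tbx3 (0.62, SE 0.16, adjusted p = 0.0949 by limma) did not pass. Tbx2 (0.59) and Lef1 (0.51) did not pass either, and Lef1 read on average under the control signal. Cdkn1c (-0.74, SE 0.48), Tshz2 (-0.29), Ptch1 (-0.28), Tbx18 (-0.23), Agtr2 (-0.16) and Gli1 (-0.04) lay below 0 without passing. The list as a whole thus did not move in a single direction. Limma called 0 of the 12 in the higher run, with 1, Tbx2 (-0.45), at an unadjusted p under 0.05 and a median of -0.08. Over all genes 0.0161% were called there and 4.16% had such a p.

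Among the ligands and partners of the PDGF receptors, Pdgfa rose in the lower run, by 0.95 (SE 0.20, adjusted p = 0.0288 by limma), and the other 5 measured did not pass. Pdgfra, the receptor gene of Pdgfa, fell there. Beside this list and those that follow, 0.896% of all genes rose and 0.621% fell in the lower run. Of 8 measured TALE partners of Meis1 and Meis2 limma called 0 in the lower run, with 2 at an unadjusted p under 0.05 where 10.2% of all genes had one, and Pbx2 gave -0.32 (SE 0.14) in the lower run. Of 8 Snail, Twist, Zeb and Prrx genes 1 rose in the lower run, the mesenchymal homeobox gene Prrx1 (0.90, SE 0.16), while Prrx2 (1.54, SE 0.36, adjusted p = 0.0511 by limma) and Twist1 (0.87, SE 0.25, adjusted p = 0.146 by limma) did not pass. Zeb1 (-0.56, SE 0.19, adjusted p = 0.232 by limma) lay below 0 and did not pass either. Of 18 interstitial matrix genes 2 rose, the proteoglycan genes Bgn (0.82, SE 0.13) and Dcn (0.57, SE 0.13), and 1 fell, Vcan (-0.48, SE 0.09). Of 15 mural, mesangial and renin cell genes limma called 0 in the lower run, and 0 had an unadjusted p under 0.05. The smallest adjusted p there, 0.496, was that of Kcnj8 (0.36, SE 0.17). In the higher run Rgs5 (1.19, SE 0.20, adjusted p = 0.1755 by limma) was higher in activated kidneys without passing. Abcc9 (0.71), Mcam (0.64), Rgs4 (0.61), Cspg4 (0.50) and Acta2 (0.28) were likewise higher there without passing. Each of these had an unadjusted p under 0.05, as 4.16% of all genes did in the higher run, and Rgs4 read on average under the control signal. Of 8 genes of the other opioid peptides, their receptors and their processing limma called 0 in the lower run, with 2 at an unadjusted p under 0.05, beside 10.2% of all genes. On average 2 of those 8 read above the control signal.

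**Figure D4:**
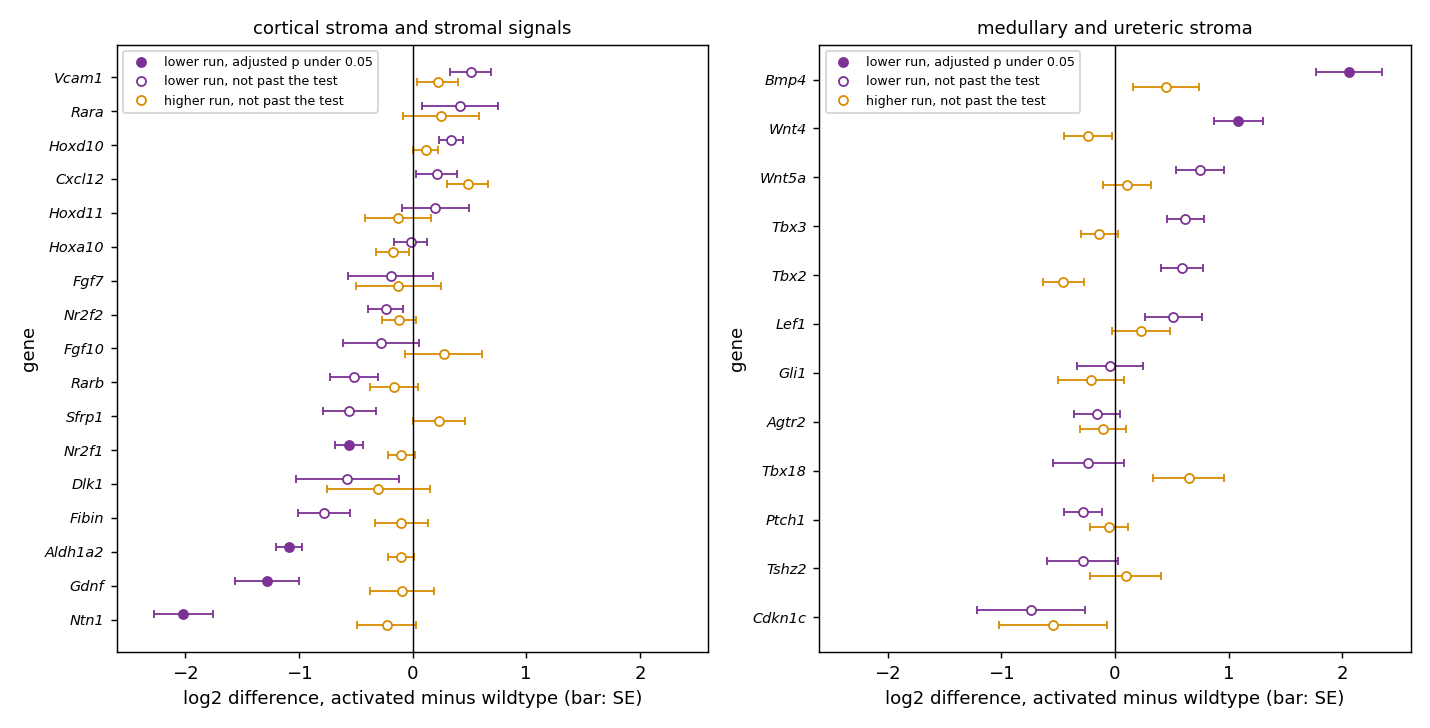
Difference between activated and wildtype kidneys for the measured genes of the cortical list (left) and of the medullary and ureteric list (right), in log2 units on the horizontal axis with bars of 1 SE, for the lower run (purple) and the higher run (orange); filled points passed the test. In the lower run Ntn1, Gdnf, Aldh1a2 and Nr2f1 fell and Bmp4 and Wnt4 rose, and in the higher run no gene of either list passed.

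The genes whose profile lay closest to that of Foxd1 were found by the root mean square difference between levels centred on each gene's own mean, over the 12 arrays and among 8560 genes above the control signal. They were Aldh1a2 (0.152), Moxd1 (0.158), Meis2 (0.166), Sel1l3 (0.166) and Nr2f1 (0.175), where the median over all candidates was 0.453. Each of the 5 differed by -1.09 to -0.56 in the lower run and by -0.34 to -0.10 in the higher run. They were picked for likeness to Foxd1 on these same arrays, so differences like those of Foxd1 were built into the choice. Closest to Penk were Gdf10, Tnfrsf1a, Cldn7, Lmo4 and Mid1ip1, at 0.220 to 0.257 with a median of 0.679 over all, and closest to Tnc were Col5a2, Pim1, Rab21, Lyst and Shisa5, at 0.140 to 0.181 with a median of 0.441. The arrays share their runs and their signal quality, so likeness is a description of these 12 arrays.

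**Figure D5:**
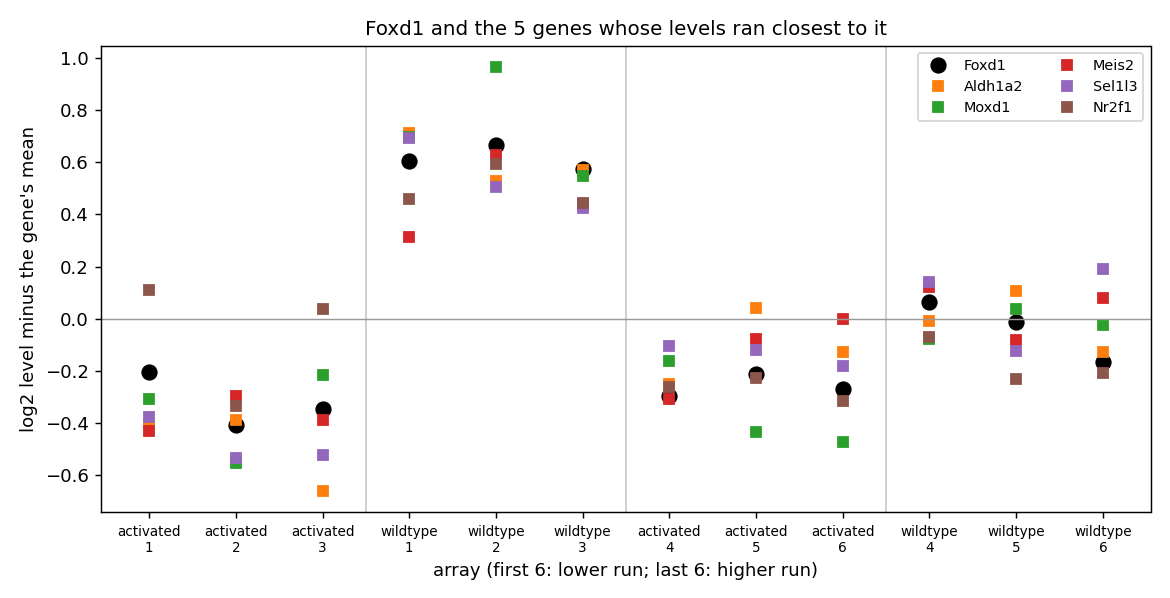
Level of Foxd1 (black) and of the 5 genes closest to it on each array, as log2 units from each gene's own mean, with the lower run on the left and the higher run on the right. All 6 genes were highest in wildtype 1 to 3 of the lower run, a likeness built in because the 5 were picked for it on these arrays.

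Markers of the other cells of the kidney were read in the same comparisons. The 6 nephron progenitor markers, all above the control signal, summed to 759 to 899 intensity units in activated and 3226 to 3553 in wildtype kidneys of the lower run, and to 2306 to 3184 in activated and 3024 to 3637 in wildtype kidneys of the higher run. All 6 fell in the lower run, where 0.621% of all genes did, with differences of -2.01 for Six2 and -1.98 for Capn6. Limma called 0 of the 6 in the higher run, with 1 at an unadjusted p under 0.05, beside 4.16% of all genes. The 6 ureteric bud markers included Ret and Hoxb7, which read under the control signal. They summed to 2268 to 2646 in activated and 3816 to 4633 in wildtype kidneys of the lower run. In the higher run they summed to 2531 to 3469 in activated and 3827 to 4227 in wildtype kidneys. Calb1, with a mean level of 11.17 beside 9.36 for Cdh1, the next highest, weighed most in these sums. Calb1 fell in the lower run (-1.02). The other ureteric bud markers did not pass there, at 0.28 (Ret), 0.04 (Wnt11), -0.11 (Gata3), -0.69 (Hoxb7) and -0.15 (Cdh1). In the higher run Calb1 (-0.49, adjusted p = 0.694 by limma) did not pass, and neither did the others. Of 5 endothelial, 4 macrophage, 3 podocyte, 3 neural and 5 muscle or cartilage markers limma called 0 in the lower run; Pecam1, Tubb3 and Sox9 alone of these had an unadjusted p under 0.05, as 10.2% of all genes did, and Pecam1 and Tubb3 read on average under the control signal. Between the runs macrophage markers summed to 1130 to 1259 in activated kidneys of the higher run, against 345 to 735.5 in those of the lower run, and to 936 to 1171 in wildtype kidneys of the higher run, against 487 to 782 in those of the lower run. In wildtype kidneys 1 of the 4, Cd68, passed between the runs (0.94), beside 5.16% of all genes, and in activated kidneys 3 did, beside 4.91%. The part of these other cells in the stromal differences, between genotypes or between runs, was not tested.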

How the data were processed

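The authors deposited 1 linear intensity for each of 22690 probe sets on each of 12 arrays; per the labels, RNA was prepared for hybridisation with Affymetrix reagents for 3′ arrays. Means trimmed by 2% at each end lay at 250.099 to 250.126, as after scaling every array to 1 target. No source used here gives the software. Array quartiles still differed, by 0.29 at the median, and log2(intensity + 16) was quantile-normalised. Of the probe sets, 20380 had 1 symbol in the platform annotation; a gene was represented by its probe set with the highest mean. The 27 probe sets for bacterial transcripts judged background; the number of arrays limits the precision.

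All comparisons used limma 3.58.1 in R 4.3.3 with a variance trend and Benjamini-Hochberg adjustment over 12393 genes. Genotypes were compared over all 12 arrays, and within and between runs in a model of 4 group means. The calculations were tested on simulated data. The members and lists were chosen with earlier results of these data known. Named genes were the 10 members, Apcdd1 and Ctnnb1 as checks, of each other list those among the 4 genes with the smallest adjusted p in the lower run and those called, and the 5 closest genes to Foxd1, Penk and Tnc. Further genes of a list were named to show those that went the other way or did not pass. Alternatives were the values as deposited, median centring, a fit without the 40% of genes dimmest on average, probe sets of a gene averaged, a pseudocount of 1, no variance trend, the 5′ to 3′ control ratio as a covariate, the run as a term, the effect averaged over runs, a separate fit of each run and leaving out each array. The slope on that ratio, and leaving out activated 2 and 4 together, were added after the data were seen. Promoter sequences are RefSeq's, for GRCm38.p6; 6 of the 10 members matched. Plots were drawn with matplotlib 3.10.9.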

Additional observations from a re-analysis of the deposited data

Results flagged for a closer look

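Among the 6 wildtype arrays, Meis1 read 8.47 in wildtype 5, where the other 5 lay between 9.46 and 9.80; the gap to the nearest array was 0.748 of the whole range, above Dixon's 95% limit for 6 samples. Without wildtype 5 the Meis1 difference between activated and wildtype kidneys was -0.23 over all arrays (SE 0.11, adjusted p = 0.881 by limma). Pdgfrb read 9.43 in wildtype 2, where the other 5 wildtype arrays lay between 9.94 and 10.20, with a gap of 0.661 of the range. Without wildtype 2 its difference over all arrays was 0.26 (SE 0.10, adjusted p = 0.695 by limma). Of 20 groups looked at, 2 stood out in this way, and chance picks about 1 in 20.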

How the results depend on the processing

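Of 1240 values of the 10 genes under alternative settings, 0 of those called changed direction, and 63 uncalled ones changed sign. No paired analysis was possible because the titles give no number shared between the genotypes. The 10 genes had 2 calls in the lower run, not 4, with arrays centred on their medians, with no variance trend or in a separate fit of that run. In wildtype kidneys between runs they had 5 calls without the dimmest genes, 6 with the 5′ to 3′ ratio and 5 without activated 2 and 4; the ratio gave 2 for the difference between the runs' effects, and it and leaving out activated 2 and 4 gave 2 each in activated kidneys between runs. Averaged over runs, 2 were called over all 12 arrays. Without single arrays the calls were 2 to 4 in the lower run, 2 to 5 in wildtype and 0 to 2 in activated kidneys between runs.

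Over all genes, the 3 calls over 12 arrays became 1 with the mean of probe sets or no trend, 13 with the run as a term (batch block), 104 averaged over runs, and 0 to 4 without single arrays. The 188 of the lower run became 302 with the ratio, 74 in the separate fit, and 119 to 185 without single arrays. The 2 of the higher run became 0 as deposited, centred, with the mean of probe sets, with no trend or without activated 2 and 4, 5 with the ratio, 1 in the separate fit, and 0 to 2 without single arrays. The 41 for the difference between runs, 12 up and 29 down, became 18 centred (3 up, 15 down), 24 with no trend, 89 with the ratio, and 16 to 51 without single arrays. Between runs, the 640 in wildtype (437 up, 203 down) became 413 centred (334 up, 79 down), 1169 with the ratio and 361 to 915 without single arrays, and the 609 in activated kidneys 951 with the ratio and 350 to 645 without single arrays. The cause of these shifts was not tested.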

Other observations

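Several interstitial matrix genes differed between the runs. In activated kidneys 10 of 18 measured matrix genes were higher in the higher than in the lower run and 0 were lower, beside 4.91% of all genes called in either direction; in wildtype kidneys 5 were higher and 1 was lower, beside 5.16%. Eln, the gene of elastin, differed by 1.79 in activated and 1.55 in wildtype kidneys, Thbs1, the gene of thrombospondin 1, by 1.57 and 1.82, and Bgn by 0.85 and 1.17. Lum, the gene of lumican, fell in wildtype kidneys of the higher run, by 1.27 on the log2 scale. Acta2, the gene of smooth muscle actin, rose by 1.40 in activated and 0.97 in wildtype kidneys of the higher run, and Rgs4, which encodes a regulator of G protein signalling, by 1.73 and 1.35. They were among 3 of 15 mural, mesangial and renin cell genes called in activated kidneys and were the 2 called in wildtype kidneys. Tagln, at 0.96 and 1.03, Myh11, at 0.72 and 0.78, Cnn1, at 1.20 and 1.29, and Des, at -0.59 and 0.23, did not pass in either. Rgs4 and Myh11 read on average under the control signal of 5.45, at 5.43 and 5.34.

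In activated kidneys Prrx1 (-1.36), Prrx2 (-1.41), Bmp4 (-1.59), Wnt4 (-0.93), Tbx2 (-0.96) and Pdgfa (-0.92) fell in the higher run relative to the lower run. The nephron progenitor genes Six2 (1.84), Cited1 (2.47) and Capn6 (1.74) rose. The macrophage genes Csf1r (1.27), Cd68 (1.27) and Ptprc (1.16) rose there too. Activated 1 to 3 enter both this comparison of runs and the lower-run comparison of genotypes. In the latter Bmp4, Wnt4, Prrx1 and Pdgfa rose and Six2, Cited1 and Capn6 fell, so the 2 comparisons are not separate observations of these genes. The labels give 3 to 4 days of culture without saying which sample had which, so culture time and run cannot be told apart.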
